A study of Arabidopsis thaliana with 6 samples.

Results

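Compact MUTE regions with tall summits are short stretches of Arabidopsis thaliana chromatin at which many immunoprecipitated fragments stacked up in every replicate of a MUTE-GFP chromatin immunoprecipitation sequencing (ChIP-seq) experiment. They were chosen from the authors' peak lists on chromosomes 1 to 5. Overlapping or touching peaks of the 3 lists were merged, and merged regions with a peak of every replicate are called shared. A region was kept if its merged width was below 2000 bp and its mean summit height over the replicates was at least 8. Summit height is the number of immunoprecipitated (IP) fragments stacked at the highest peak summit of the region, per 1000000 IP fragments kept after duplicate removal. A stretch of chromosome 2 from 3.2 to 3.7 Mb was left out, which removed 11 shared regions, 1 of them compact and tall. The rule kept 822 of 5946 shared regions (13.8%), out of 14106 merged regions in all. Width and height chose these regions, so their peak statistics are given as descriptions with no test.

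MUTE belongs to the basic helix-loop-helix (bHLH) proteins, which bind DNA as dimers. It acts as a transcription factor in the stomatal lineage, the cells that give rise to the pores of the leaf surface. It is expressed briefly in meristemoids, ends their self-renewing divisions and directs them to become guard mother cells, which then divide a single time into a pair of guard cells. It acts as a dimer with a related bHLH protein, SCREAM (SCRM, also called ICE1) or SCRM2, and switches on cell cycle genes needed for that last division.

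All samples came from plants of the genotype proMUTE::MUTE-GFP scrm-D, in which the MUTE promoter drives a fusion of MUTE to green fluorescent protein and SCRM carries the dominant scrm-D allele. Whole seedlings were taken 2 days after germination, without treatment, from 60 mg of seed per replicate. There were 3 IP samples made with an antibody against GFP and 3 input samples, which are sonicated chromatin never put to antibody, and each kind carries the replicate numbers 1 to 3. All share that genotype, age and tissue, so conditions cannot be compared, and an IP from plants without MUTE-GFP was not analysed here. In whole seedlings, strong occupancy in few cells and weak occupancy in many cells cannot be told apart, and the peak lists hold no expression values against which the tissue label could be checked. The IP libraries kept 30075453, 20173429 and 21903071 fragments in replicates 1, 2 and 3, so the height limit of 8 corresponds to a stack of 241, 161 and 175 fragments. Nothing in the labels says whether replicates came from separate cultures, so the spread between them may be technical.

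Median summit height over the 822 regions was 8.84, 12.2 and 9.27 in replicates 1, 2 and 3. Replicate 1 spanned heights of 4.79 to 19.9, replicate 2 spanned 8.03 to 29.1, and replicate 3 spanned 5.84 to 26.7. All 822 reached a height of 8 in replicate 2, 579 did so in replicate 1 and 599 in replicate 3, and 458 did so in every replicate. Membership therefore rested on replicate 2 more than on the other replicates. Replicate 2 gave the highest scaled height in 782 of the 822 regions (95.1%, 95% Wilson interval 93.4 to 96.4%). Fold enrichment, described next, was also highest in replicate 2 in 757 regions (92.1%). In unscaled fragments, where the larger library of replicate 1 counts in full, replicate 1 was highest in 540 regions and replicate 2 in 272.

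Fold enrichment, the authors' ratio of summit stack to local background, had medians of 3.23, 4.31 and 3.34 in replicates 1, 2 and 3. It reached 3 in every replicate in 410 of the 822 regions (49.9%, 46.5 to 53.3%), beside 19.6% of all shared regions. The rule chose on the same IP signal, so this difference is no evidence about the regions. The remaining 3508 compact shared regions, whose mean height was below 8, had median heights of 5.29, 6.10 and 4.93. The 1041 tall shared regions of 2000 bp or more had median heights of 10.8, 14.5 and 10.8. The compact regions were thus lower in the median than the wide ones that met the same height limit, in each of the 3 replicates.

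**Figure D1:**
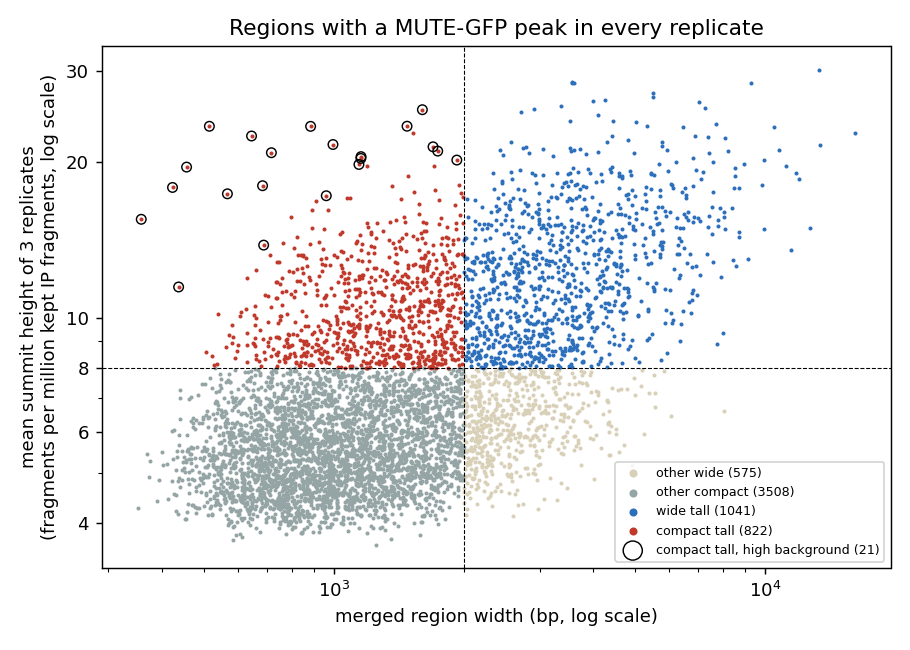
Each point is a region with a peak in every replicate outside the left-out stretch of chromosome 2, placed by merged width (bp, log scale) and mean summit height over 3 replicates (fragments per 1000000 kept IP fragments, log scale). Dashed lines mark 2000 bp and a height of 8, red points are the 822 compact tall regions and black circles the 21 with high background, of which 19 stand among the 50 tallest.

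Median merged width was 1304.5 bp, with an interquartile range of 971 to 1624.5 bp. In 794 of the 822 regions each replicate had a single peak. Individual peaks had median widths of 1067, 1105.5 and 921.5 bp in replicates 1, 2 and 3. The narrowest region, of 358 bp, lay on chromosome 4 at 5267940 to 5268297 inside a pseudogene entry, AT4G08340, with heights of 12.3, 17.5 and 16.8. It was a high-background region, as defined below, with folds of 2.11, 2.54 and 2.19 in replicates 1, 2 and 3. The widest, of 1998 bp, lay on chromosome 3 at 7592942 to 7594939, with heights of 9.54, 14.5 and 8.72, and DMP2 was the nearest gene, 1068 bp away.

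The regions next to the height limit differed little from each other in mean height, and those next to the width limit little in width. Just inside the height limit were a region on chromosome 5 at 26252847 to 26253910 with a mean height of 8.0005 ± 2.24 (SD, n = 3), and regions near AT3G05180 and RRA1 with means of 8.005 ± 1.44 and 8.005 ± 2.44 (SD, n = 3). Just outside it were regions near AT5G34358, MYB94 and AT3G19320, with means of 7.9997 ± 1.37, 7.997 ± 1.43 and 7.996 ± 2.40 (SD, n = 3). At the width limit, the regions at DMP2 (1998 bp), ARF19 (1997 bp) and AT5G09825 (1992 bp) were members. The tall regions nearest RMA1 (2000 bp), HSL1 (2002 bp) and MYB77 (2008 bp) were not. Replicate SDs near the height limit exceeded the distance from the limit many times over, so the limit is a line drawn through a continuous range.

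Height was also read in a replicate that had taken no part in choosing on height. Compact shared regions were chosen again from the mean height of 2 replicates, and the remaining replicate was examined. It had contributed a peak and the width, but not the height. The 934 regions chosen on replicates 2 and 3 had a median height of 8.51 in replicate 1, against 5.25 in the compact regions not chosen. The 609 chosen on replicates 1 and 3 had a median of 13.3 in replicate 2, against 6.20. The 963 chosen on replicates 1 and 2 had a median of 8.67 in replicate 3, against 4.89. The held-out height exceeded the median of the regions not chosen in 98.1%, 100% and 99.8% of the chosen regions in replicates 1, 2 and 3. The ranges overlapped, since chosen regions fell as low as 4.39, 7.83 and 4.75, and regions not chosen rose as high as 10.5, 21.2 and 9.45. With 3 samples of 1 group, no exact test over samples can reach 0.05, and none is given.

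The tallest compact regions were of a kind apart. Local background, back-computed from the deposited stack and fold, was above 3 times the genome-wide value in at least 1 replicate in 21 of the 822 regions, here called high-background regions (2.55%, 1.68 to 3.87%), beside 0.673% of all shared regions. The tall wide regions held 19 of 1041 (1.83%, 1.17 to 2.83%) and the other compact regions 0 of 3508, so the trait was not confined to compact regions. The limit was set after the data were examined. It stands in a gap, because the highest background among the other 801 regions was 2.70 times the genome-wide value in any replicate and the lowest among the 21 was 3.18 at its highest replicate. High-background regions made up 9 of the 10 tallest members, 15 of the 20 tallest and 20 of the 100 tallest. Their median heights were 16.9, 22.5 and 21.9 in replicates 1, 2 and 3, but their median fold enrichments were only 1.32, 1.46 and 1.32. Background in these regions was 5.22, 6.15 and 7.09 times the genome-wide value in the median. Background was computed from stack and fold, so low folds beside such backgrounds follow largely from how the 21 were defined. The height of the 21 is largely built in too. A peak's stack exceeds local background, and 3 times the genome-wide value lies just below the height limit. A shared region with such background could hardly miss that limit. The 0 of 3508, the contrast with all shared regions and the places among the tallest therefore follow largely from these definitions. Of the 21, 19 stayed below a fold of 2 in every replicate. Among the remaining 801 regions 3 did so.

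The tallest member of all was a high-background region on chromosome 5 at 11734387 to 11735991. Its heights were 19.9, 29.1 and 26.7 in replicates 1, 2 and 3. Its fold enrichments were 1.37, 1.64 and 1.32, against a back-computed background of 437, 358 and 444 fragments. The nearest gene entry was a pseudogene 4278 bp away, and the nearest protein-coding gene stood 98361 bp away. The high-background regions lay on chromosome 3 (9), chromosome 4 (7), chromosome 5 (4) and chromosome 2 (1). Those on chromosome 4 fell between 3973890 and 5268297 and those on chromosome 5 between 11709914 and 11737796. Of the 10 tallest members, 2 high-background regions had their summit inside a protein-coding gene, AT2G16586 on chromosome 2 at 7190969 to 7191483 and AT3G20362 on chromosome 3 at 7103714 to 7104597. At AT2G16586 the region had heights of 18.3, 27.1 and 25.02 and folds of 1.85, 2.27 and 1.84, and its 3 summits fell within 1 bp. That closest spread was shared by 6 members.

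**Figure D2:**
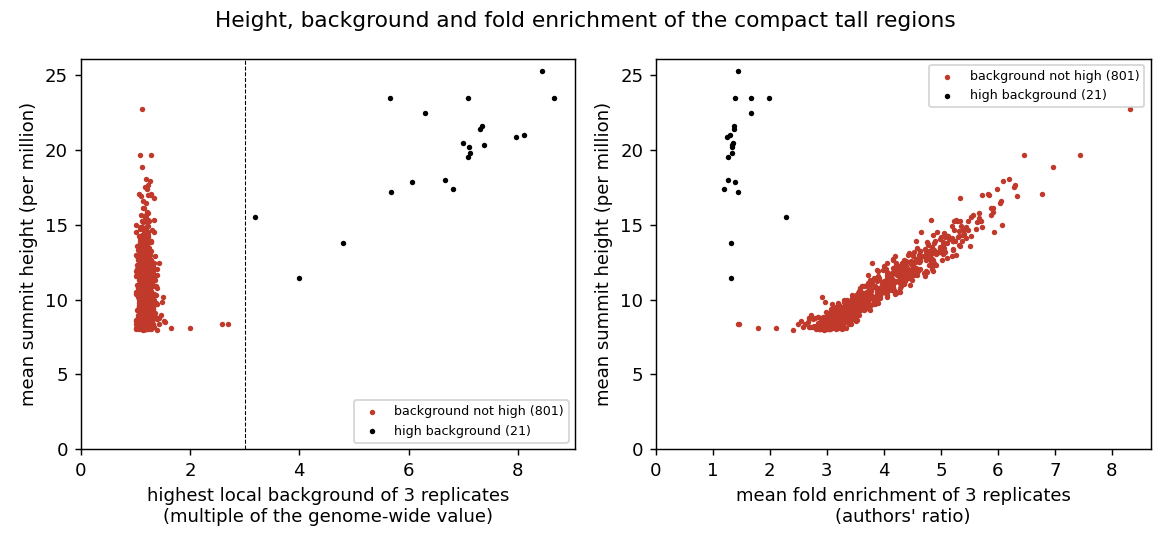
Mean summit height of the 822 compact tall regions (fragments per 1000000 kept IP fragments, 3 replicates) against the highest local background of the 3 replicates (left, multiple of the genome-wide value, dashed line at 3) and against the authors' mean fold enrichment (right). The 801 red regions climb with fold enrichment, while the 21 black high-background regions are tall at folds mostly below 2.

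Across the 801 regions whose background was not high, mean height and mean fold ranked the regions alike (Spearman's rho 0.95, n = 801 regions that share the same 3 libraries). Across all 822 the value was 0.81. Fold is the stack over local background, and background varied little among most of the 801. The close ranking is therefore largely built into the 2 measures. The tallest of these 801 regions are described next. They were chosen after the values had been seen.

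The tallest region with ordinary background lay on chromosome 2 at 8543742 to 8545266, and it was the single such region among the 10 tallest members. Its heights were 16.4, 28.4 and 23.4 in replicates 1, 2 and 3, and its folds of 6.15, 10.1 and 8.68 were the highest of any member in each replicate. Its 3 summits fell within 21 bp. The nearest gene entry was a pseudogene, AT2G19806, 944 bp away, and the nearest protein-coding gene was 5473 bp away. Next in height was a region on chromosome 5 at 25045894 to 25047085, with heights of 15.0, 23.7 and 20.3, whose summit lay inside a long non-coding RNA entry, AT5G09060. A region on chromosome 4 at 9445083 to 9446790 had heights of 15.6, 23.7 and 19.6. Its nearest gene was HB-2, which encodes a homeodomain-leucine zipper transcription factor known from shade responses, 3044 bp away.

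Several of the others lay inside genes close to one end. The region on chromosome 1 at 9630787 to 9632149 had its summit in APL2, which encodes a large subunit of ADP-glucose pyrophosphorylase, an enzyme of starch synthesis, 134 bp from the nearer gene end. Its heights were 13.8, 23.1 and 17.0. On chromosome 3, at 19352937 to 19354469, the summit was 50 bp inside SEX4, which encodes a phosphatase needed for starch breakdown, with heights of 14.5, 20.9 and 17.2. ARF19, an auxin response factor gene, held a summit 209 bp from its nearer end, in the region of chromosome 1 at 6626605 to 6628601, with heights of 12.8, 22.0 and 16.5. Folds of these 3 regions were between 7.28 and 8.87 in replicate 2, and between 4.799 and 5.53 in replicate 1. The remaining 4 lay near or in AT5G23250, A/N-InvD (an alkaline/neutral invertase gene), the non-coding entry AT4G07105 and AT2G31010, with mean heights between 17.4 and 18.8. In all 10 regions replicate 2 was highest and replicate 1 lowest, as was the case in most members.

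**Figure D3:**
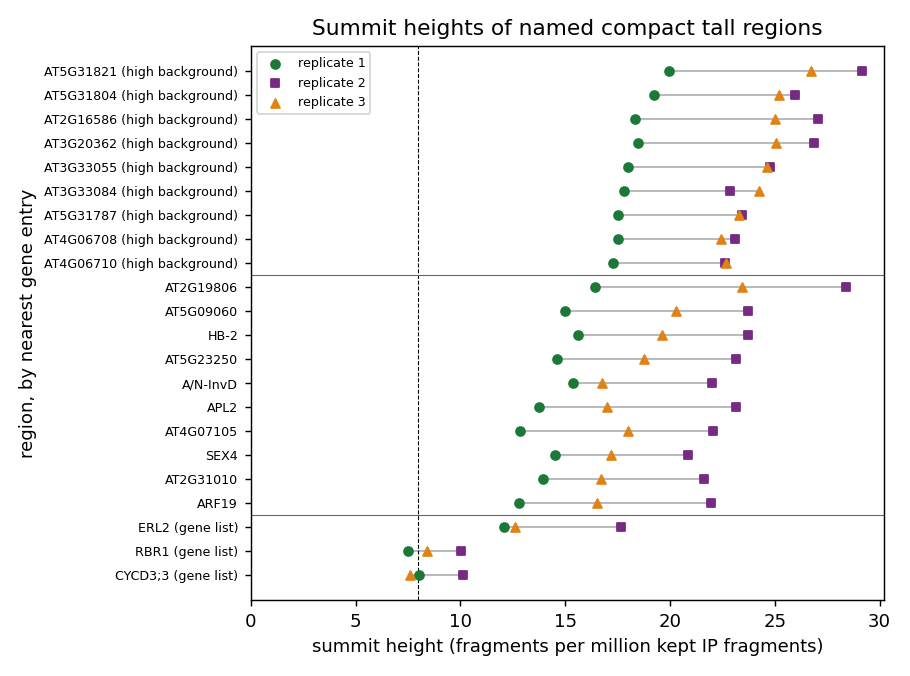
Summit height in each replicate (fragments per 1000000 kept IP fragments) of the 9 high-background regions among the 10 tallest members, the 10 tallest members with ordinary background, and the 3 members whose nearest protein-coding gene was on a gene list. The dashed line marks a height of 8, and RBR1 and CYCD3;3 each have a replicate below it, as the rule asked only for the mean.

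A list of 30 stomatal lineage genes and a list of 30 cell cycle genes were set against the regions, using gene intervals of the TAIR10.1 gene table. The table gives no strand, so gene starts could not be told from gene ends and distances are to the nearer end. The protein-coding gene nearest to a compact tall summit was a stomatal gene in 1 case, ERL2, and a cell cycle gene in 2, RBR1 and CYCD3;3. That is 1 of 30 and 2 of 30 genes, beside 2.89% of all 27444 protein-coding genes. Tall wide regions had 17 of the 30 stomatal genes and 8 of the 30 cell cycle genes as nearest gene. The share of all protein-coding genes was 3.69%. The 17 included SPCH, MUTE, FAMA, SCRM and TMM, and also ERL1 and ERL2. The other compact regions had 5 of the 30 stomatal genes and 5 of the 30 cell cycle genes as nearest gene. That stood beside 12.0% of all protein-coding genes. No test was made of these shares.

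ERL2 encodes a receptor kinase of the ERECTA family that restrains stomatal development. The region at ERL2 lay on chromosome 5 at 2232507 to 2234398 with its summit 84 bp inside the gene. Its heights were 12.1, 17.6 and 12.6 and its folds 4.60, 6.69 and 4.31 in replicates 1, 2 and 3. Replicate 2 stood apart, while replicates 1 and 3 lay close together.

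Its paralogue ERL1, a receptor that perceives the EPF1 peptide and limits the MUTE-dependent step, also had a compact tall region. ERL1 was the nearest gene of a tall wide region as well. The compact region lay on chromosome 5 at 25001331 to 25003212. Its summit fell where ERL1 and the neighbouring gene AT5G62240 overlap, 2 bp from the end of the latter. Heights there were 12.8, 14.5 and 11.0 and folds 4.95, 5.51 and 4.07. These replicates were closer to each other (12.7 ± 1.76, SD, n = 3) than at ERL2 (14.1 ± 3.07, SD, n = 3).

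RBR1 encodes the retinoblastoma-related protein, which holds back entry into the cell cycle and restrains divisions in the stomatal lineage. The region at RBR1 was 950 bp wide, on chromosome 3 at 3918849 to 3919798, with its summit 34 bp inside the gene. Its heights of 7.51, 10.01 and 8.40 were among the lower ones (rank 644 of 822), and its folds were 3.09, 4.07 and 3.40. Its summits fell within 10 bp of each other.

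CYCD3;3 encodes a D-type cyclin, a class that promotes entry into the cell cycle. The nearest region was 506 bp wide, on chromosome 3 at 18563104 to 18563609, with its summit 1787 bp from the gene. Its heights were 8.05, 10.1 and 7.58 and its folds 3.04, 3.62 and 2.72. CYCD3;3 was also the nearest gene of a compact shared region below the height limit.

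Within 1000 bp of a summit there were also CDKB1;1 and CYCA2;4, whose nearest neighbour at the summit was another gene. By this measure 3 of the 30 cell cycle genes and 2 of the 30 stomatal genes were counted. The share of all 27444 protein-coding genes was 3.09%, and no test was made. CDKB1;1 is a plant-specific mitotic kinase required for the division of the guard mother cell, and CYCA2;4 belongs to the A2 cyclins, which act with it. The CDKB1;1 region lay on chromosome 3 at 20058622 to 20060457, between CDKB1;1 at 56 bp and FIP37 at 32 bp. Its heights were 8.51, 13.4 and 9.31, its folds 3.03, 4.35 and 3.24, and its summits within 15 bp. The CYCA2;4 region lay on chromosome 1 at 30216452 to 30217901, 65 bp from CYCA2;4, with its summit 51 bp inside AT1G80380. Its heights were 10.6, 13.8 and 8.77 and its folds 4.13, 4.84 and 3.41. CYCA2;4 was the nearest gene of a compact shared region below the height limit. The summit thus lay between genes at CDKB1;1 and inside the neighbouring gene at CYCA2;4.

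Compact tall regions also overlapped many small nuclear RNA (snRNA) genes. The snRNAs are the RNA cores of the spliceosome, the machine that removes introns. U1, U2, U4, U5 and U12 are known to be made by RNA polymerase II, and U6 by RNA polymerase III. Compact tall regions overlapped 24 of the 82 annotated snRNA entries (29.3%, 95% Wilson interval 20.5 to 39.9%), beside 892 of 37899 entries of all kinds (2.35%). No test was made of this difference, which was noticed in these data. Other compact regions overlapped 7 of the 82 entries (8.54%), beside 11.4% of entries of all kinds. Tall wide regions overlapped 4 (4.88%), beside 5.47% of entries of all kinds. By family, compact tall regions overlapped 11 of 23 U2 entries, 7 of 14 U1 entries, 3 of 11 U4 entries, 2 of 14 U5 entries and 1 of 2 U12 entries. They overlapped 0 of 14 U6 entries and 0 of 4 entries for U4atac and U6atac. Those entries were not without peaks. A peak of at least 1 replicate overlapped 6 of 14 U6 entries and 3 of 4 for U4atac and U6atac. The same count was 15 of 23 for U2, 9 of 14 for U1, 8 of 11 for U4, 5 of 14 for U5 and 1 of 2 for U12. Differences between families were not tested.

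The 24 entries were covered by 21 compact tall regions, since 3 regions spanned a U4 and a U1 entry side by side. In 20 of the 822 members the mean summit itself fell inside an snRNA entry, with entries having a median length of only 153 bp. All 3508 other compact regions together had 3 such summits, and the 1041 tall wide regions had none. The tallest, at U2.5, lay on chromosome 5 at 2974507 to 2976114, with heights of 12.9, 19.8 and 13.1 and folds of 4.86, 7.80 and 4.47. U2.11 lay within a region of chromosome 1 at 3179957 to 3180989 that had heights of 12.8, 17.3 and 13.4, and its summits fell within 5 bp. At U12, on chromosome 1 at 22602890 to 22603636, heights were 10.6, 16.5 and 11.3. The lowest of the 21, at U2.2 on chromosome 3 at 21346466 to 21347251, had heights of 8.71, 11.3 and 7.72.

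The 21 snRNA regions were narrower than most members, with a median width of 879 bp against 1320 bp for the other 801. Their median heights were 11.1, 16.2 and 10.3 in replicates 1, 2 and 3, against 8.84, 12.1 and 9.22. Background was at most 1.21 times the genome-wide value in any of the 21. The snRNA genes exist in near-identical copies, and how fragments that match several copies were handled is not given in the sources used here. Its part in these heights was not tested. The gene table lists 8 snRNA entries under a symbol used for another entry, so 82 counts entries and not genes.

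**Figure D4:**
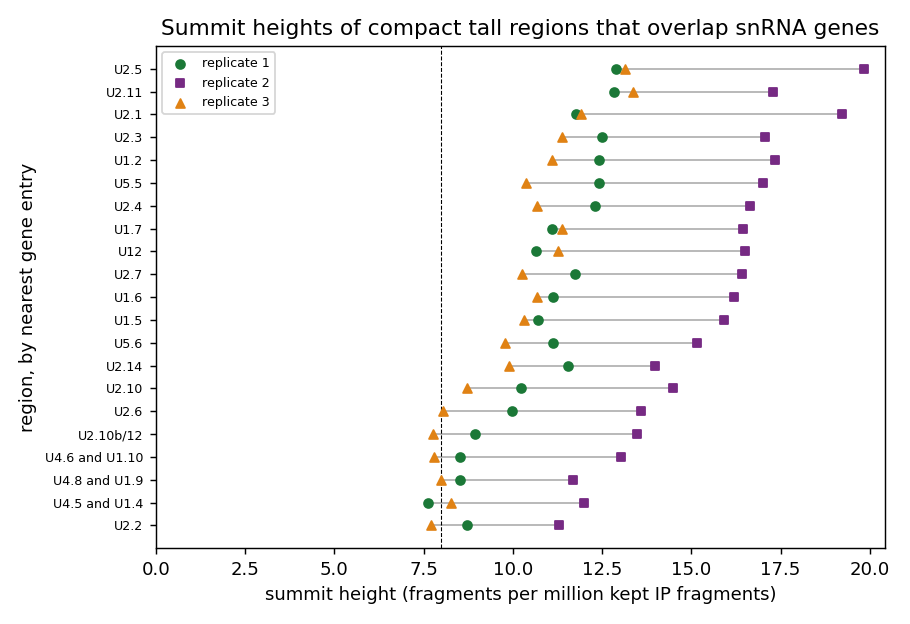
Summit height in each replicate (fragments per 1000000 kept IP fragments) of the 21 compact tall regions that overlap an annotated snRNA entry, in order of mean height. The dashed line marks a height of 8, and replicate 2 is highest in all 21, as it is in most members.

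Relative to genes in general, compact tall summits lay mostly between genes. The mean summit fell inside a protein-coding gene interval in 285 of 822 regions (34.7%, 31.5 to 38.0%). The share was 54.0% in the other compact regions (52.4 to 55.7%) and 39.2% in the tall wide regions (36.3 to 42.2%). Protein-coding intervals cover 54.1% of the chromosomes up to the last gene, close to the share of the other compact regions. With entries of every kind the share of compact tall summits inside a gene was 40.6%. Where the summit was inside a protein-coding gene, it was a median of 145 bp from the nearer end, against 188 bp in the other compact regions and 290.5 bp in the wide ones. Where it was between protein-coding genes, the median distance to the nearest was 611 bp, against 318 bp and 617 bp. The gap between the flanking genes had a median of 3389 bp, against 2371 bp for the other compact regions and 2789 bp for the wide ones. Regions are not replicates, and no test was made.

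By overlap, compact tall regions touched 16 of 287 small nucleolar RNA entries (5.57%, 3.46 to 8.86%), 16 of 508 entries of miscellaneous RNA (3.15%, 1.95 to 5.05%) and 78 of 3480 long non-coding RNA entries (2.24%, 1.80 to 2.79%), beside the 2.35% of all entries. They touched 7 of 625 tRNA entries (1.12%, 0.544 to 2.29%) and 6 of 3917 pseudogene entries (0.153%, 0.0702 to 0.334%). The small nucleolar RNA and pseudogene shares were not particular to compact tall regions. Other compact regions touched 26.5% and 0.689% of these entries, beside 11.4% of all entries. Tall wide regions touched 13.6% and 0.332%, beside 5.47% of all entries. Among the compact tall regions, the mean summit lay inside a long non-coding RNA entry in 25, inside a pseudogene entry of either kind in 5 and inside a small nucleolar RNA entry in 1. It lay inside a tRNA entry in 0 of 822 members, which allows a share of up to 0.465% (Wilson), beside 20 of the 3508 other compact regions. A summit between genes and more than 5000 bp from any protein-coding gene was found in 26 members, of which 19 were high-background regions.

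Summit positions, which the rule did not use but which come from the same peak calls, were close together in most regions. The outermost of the 3 summits were a median of 47 bp apart, and lay within 50 bp in 457 of 822 regions (55.6%, 52.2 to 59.0%). In the 21 high-background regions the median was 11 bp, against 47 bp in the remaining 801 members. Close summits thus also occurred at low fold enrichment. In the other compact regions the median was 114 bp and 18.9% lay within 50 bp (17.6 to 20.2%). The tall wide regions had a median of 50 bp and 51.6% within 50 bp (48.5 to 54.6%). Spreads over 150 bp were found in 4.87% of compact tall regions (3.59 to 6.56%) and in 16.1% of tall wide regions (14.03 to 18.5%). The width limit bounds how far apart summits can lie in compact regions, while spreads in tall wide regions ran up to 9956 bp. That difference is therefore partly set by the rule. For pairs of replicates the median distance was 26.0 ± 2.65 bp (SD over 3 pairs) in compact tall regions, 29.0 ± 3.61 bp in tall wide and 68.0 ± 6.56 bp in other compact regions. The gap between the compact and wide tall regions was thus about the size of the spread between pairs, and the gap to the other compact regions was many times larger. The pairs share replicates, so their values are not independent and this SD is a description only. Across members, taller regions had slightly smaller spreads (Spearman's rho -0.23, n = 822). The part of height in the spread was not tested. The largest spread among members, 1243 bp, was in a region at TRM10 on chromosome 4 at 7085364 to 7087203, with heights of 5.92, 10.3 and 7.85.

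**Figure D5:**
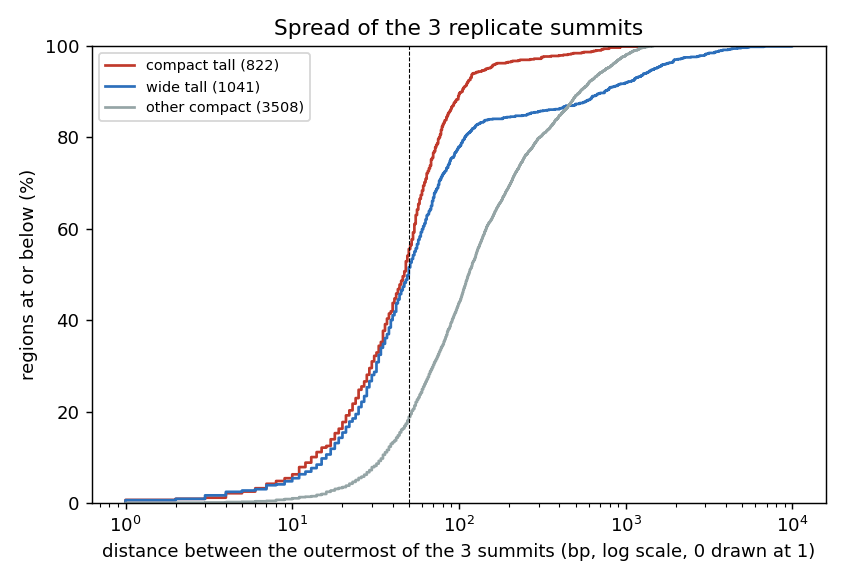
Share of regions (%) whose 3 replicate summits lay within the distance on the horizontal axis (bp, log scale), for compact tall, tall wide and other compact shared regions, with a dashed line at 50 bp. The curves of the tall sets run together up to about 50 bp, where 55.6% and 51.6% of regions lie, and the other compact regions reach 18.9% there.

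Heights varied between replicates by a median of 19.7% of the mean (coefficient of variation, n = 3), from 1.54% to 69.3%. The steadiest region lay in AT5G53880 on chromosome 5 at 21872843 to 21873809, with heights of 8.45, 8.67 and 8.67. The most variable lay in AT2G31590 on chromosome 2 at 13445817 to 13447437, with heights of 5.42, 21.2 and 9.09, so that replicate 2 alone carried it over the limit. Across the 822 regions heights were ranked alike by replicates 2 and 3 (Spearman's rho 0.87) and less so by replicates 1 and 2 (0.61) and 1 and 3 (0.60). These values describe regions selected for height, which narrows the range.

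The regions were spread over the whole genome, with 6.97, 6.75, 6.48, 6.78 and 7.38 per Mb on chromosomes 1 to 5. Complete 1 Mb bins held a median of 7 members and at most 16, and 5 of 116 bins held none. Neighbouring members were a median of 77602 bp apart, and 48 of 817 neighbouring pairs lay within 5000 bp. Some of these pairs were high-background regions, as on chromosome 4 at 3973890 to 3975046 and 3975377 to 3977118. The nearest tall wide region was a median of 27785 bp away and within 5000 bp of 142 members (17.3%). No share of other regions is given beside these counts, so they describe the members only.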

How the data were processed

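The deposited peak lists of the 3 IP samples were used, grouped by title. Peak calling by the authors used MACS 2.1.0.20140616 on paired-end fragments, per the file headers, each IP against the input of its own number, with a q-value cutoff of 0.05, an effective genome size of 130 Mb, at most 1 fragment per position, the larger library scaled to the smaller, and local background over 1000 and 10000 bp. The submitters' processing notes name Bowtie2 and TAIR10, without roles or versions. The deposited signal is the pileup, the IP fragments stacked at the summit. The deposited fold enrichment is a ratio of that stack to local background. Both columns on a −log10 scale, the p-value and the q-value as deposited, have lost their headings and were told apart by their order. All these values are the authors' own and serve only as descriptions.

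Peaks were merged, scaled and placed with Python 3.11.15, pandas 2.3.3 and numpy 2.4.6, and Wilson intervals came from scipy 1.17.1. Intervals cover counting error only, and fragments without molecular identifiers are not independent molecules. Background is pileup plus 1 over fold, minus 1, as MACS adds 1 to both. The genome-wide background is kept IP fragments times fragment length over effective genome size. The mean of the 3 summits was placed in gene intervals of the RefSeq table of assembly TAIR10.1, whose chromosomes 1 to 5 are taken to share coordinates with TAIR10. All 60 listed genes matched by locus tag.

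Named regions follow a written rule: the 10 tallest members, the 3 regions on either side of the height limit, the extremes of width, variation and summit spread, and members whose nearest gene is on a list. The 10 tallest with ordinary background, the snRNA regions, the regions at the width limit and the list genes within 1000 bp were chosen after their values were seen. The members and lists were chosen with earlier results of these data known. The planned distances to gene starts and the E-box searches were not made, as the table has no strand and no genome sequence was used here. The procedures were tested on simulated data.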

Additional observations from a re-analysis of the deposited data

How the results depend on the processing

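The number of compact tall regions follows its limits. It moved from 822 to 539 with a width limit of 1500 bp and to 1255 with 3000 bp, to 1975 with a mean height of at least 6 and 417 with at least 10, and to 458 when every replicate had to reach 8. Dividing by total IP fragments before duplicate removal gave 103 by construction, since the divisor is larger, and 5 in place of 21 members at snRNA entries. The number was 826 with merging only at 100 bp of overlap, 806 with −log10 q of at least 10 and 801 without high-background regions. Using the peaks and heights of 2 replicates gave 732 to 1073 regions, the lowest without replicate 2, and 20 to 22 at snRNA entries, a number that ranged from 16 to 22 under the other alternatives to the rule. The share of summits inside genes was 34.4% to 35.3% with the summits of single replicates, 33.2% to 36.0% without 1 replicate and 35.3% without high-background regions, and it moved from 34.7% to 40.6% with all gene entries. The median summit spread fell from 47 bp to between 23 and 28 bp without 1 replicate, by construction, since a pair of summits remains. Median height ranged from 9.01 to 10.7 and median fold from 3.25 to 3.80 without 1 replicate. Counting list genes within 1000 bp of a summit gave 5 in place of 3, while the share of all protein-coding genes went from 2.89% to 3.09%. The alternatives for upstream windows and motif windows were not run. No paired analysis was possible because each deposited list already sets an IP against its own input and holds no separate input values. Sites below the authors' cutoff at 20173429 to 30075453 kept fragments are not shown to be unbound.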
